A study of Mus musculus with 6 samples.

Results

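The genes that encode the proteins of the cytosolic ribosome were examined in C2C12 cells, a mouse myoblast line, after RNA interference against huntingtin (Htt). A gene was a member when a probe set of the array, that is a group of probes summarised to 1 value, carried its symbol alone and the symbol was Rpl or Rps with a number and optional letters, Rplp0 to Rplp2 or Rpsa; pseudogene symbols and the Rps6k kinases were left out, and the brightest probe set stood for the gene. This gave 64 members of 22180 genes measured, 40 of the large and 24 of the small subunit. Of these, 57 are standard subunits, and the other 7 (Rpl3l, Rpl6l, Rpl10l, Rpl32l, Rpl39l, Rps4l and Rps27l) are paralogs or symbols marked as like copies. Rps27 was set against the other 63 because its difference was already known, so its values are a description.

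The series holds 6 arrays of C2C12 total RNA, 3 after a pool of siRNAs against Htt and 3 after scramble siRNA. The labels of the first group say knockout, but the design text and protocol describe transfected siRNA, and the arrays are called Htt siRNA arrays here. Both groups were transfected C2C12 cells; neither the harvest time nor the differentiation stage is stated in the labels. Nothing in the labels ties the replicates to separate cultures, so p-values measure only the spread between these arrays, which may be technical.

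The ribosome of the cytosol joins a small subunit, which reads the mRNA, to a large subunit, which forms peptide bonds, and each ribosome holds a single copy of nearly every ribosomal protein. The mRNAs of these proteins are abundant in growing cells, and most begin with a run of pyrimidines, the terminal oligopyrimidine (TOP) sequence, through which mTORC1 signalling controls their translation. Their synthesis is therefore regulated largely at translation, which an array of RNA levels does not measure. Mammalian genomes also hold many processed pseudogenes and retrocopies of these genes, so that a probe set can be matched by more than 1 locus.

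Start sites are shown for Rps27, its retrocopy Rps27rt, its paralog Rps27l and 2 further members, because the results turn on Rps27 and its copies. Each line gives 60 bases before and 20 bases from the annotated start, from RefSeq on GRCm38.p6, and capitals mark a C at the start followed by at least 4 C or T bases. The window of Rps27 is chr3:90213629-90213708 on the minus strand, that of Rps27rt chr9:114982720-114982799 on the minus strand, that of Rps27l chr9:66946026-66946105 on the plus strand, that of Rps6 chr4:86857348-86857427 on the minus strand and that of Rpl35 chr2:39005112-39005191 on the minus strand.
Rps27: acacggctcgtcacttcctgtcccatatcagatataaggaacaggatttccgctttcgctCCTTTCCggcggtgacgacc
Rps27rt: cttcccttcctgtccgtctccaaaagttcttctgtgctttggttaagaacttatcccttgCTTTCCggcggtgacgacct
Rps27l: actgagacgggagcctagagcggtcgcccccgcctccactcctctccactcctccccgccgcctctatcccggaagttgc
Rps6: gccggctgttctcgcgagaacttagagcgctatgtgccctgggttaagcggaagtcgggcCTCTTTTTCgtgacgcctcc
Rpl35: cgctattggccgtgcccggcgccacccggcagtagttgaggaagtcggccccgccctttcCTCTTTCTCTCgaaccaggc

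Rps27 and Rps27rt share an unbroken run of 38 bases, from base 2 to base 39 counted from the start of Rps27 and from base 1 to base 38 of Rps27rt, while the bases before the start differ. Rps27l, at its first annotated start, does not meet the definition of a pyrimidine run, because its base 1 is a G. The letters cctct follow from base 2, however. Of the 64 members, 49 had a promoter window in the RefSeq table. A pyrimidine start as defined above was found in 11 of the 49 (22.4%), against 3.01% of the 27025 genes with a window. The letters CGGAA, on either strand in the 250 bases before the start, were present in 37 of 49 members (75.5%) and 27.9% of all genes, and TATAAA in 3 members (6.12%) and 14.3% of all genes. The median log2 fold change of the 11 members with a pyrimidine start was 0.00096, and that of the 38 without was 0.00064. The definition asks for a C at the annotated base itself, so the 38 may hold mRNAs whose run begins at another base. The split therefore cannot separate TOP mRNAs from others.

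As a check of the treatment, Htt read 4.49, 4.47 and 4.65 in the Htt siRNA arrays and 5.59, 5.60 and 5.72 in the scramble arrays, as log2 RMA values. Its log2 fold change was -1.102 ± 0.09 (moderated standard error, SE; adjusted p = 0.0559 in limma). All 8 listed myoblast markers lay above the median gene mean of 2.95, with 6-array means from 5.88 to 10.2, against 4 of 6 neuron and 2 of 5 macrophage markers. The list includes Myog and was chosen with earlier results of these data known, so its counts are a description. All 8 myoblast markers had a positive log2 fold change, where 58.2% of all genes did. At a level of 4 to 8, 3371 of 7621 genes were positive, and at 8 or above 512 of 1052. In limma 4 of the 8 were higher at an unadjusted p under 0.05, against 5.72% of all genes, and 0 passed after adjustment. The part of these marker differences in the values below was not tested. RMA scales all arrays alike, which hides any shift in the RNA content of a cell. Differences of dim probe sets on such arrays are generally compressed, which was not tested here. With 3 arrays a group, precision is limited throughout.

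Ribosomal protein genes showed little difference between the groups. The widest difference was on the single-symbol probe set of Rps27, at a mean level of 4.94, above the median gene mean of 2.95. That difference did not pass after adjustment, and a brighter probe set that names Rps27 did not share it. The median log2 fold change (Htt siRNA minus scramble) of the 64 members was -0.0063, with quartiles of -0.079 and 0.040, against a median of 0.030 over all 22180 genes. Of the members 31 had a positive and 33 a negative value, while 58.2% of all genes had a positive value. That share depended on the level. With a 6-array mean below 4, 9036 of 13507 genes and 9 of 16 members were positive. At 4 to 8, 3371 of 7621 genes and 6 of 18 members were positive, and at 8 or above 512 of 1052 genes and 16 of 30 members. In limma 0 of 64 members passed an adjusted p of 0.05, as did 0% of all genes. At an unadjusted p under 0.05, 1 member (Rps27) was higher and 0 were lower, a share of 1.56%, against 5.72% of all genes higher and 5.14% lower.

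The groups did not overlap in 2 members that were higher (Rps27 and Rpl10l), where 10.1% of all genes did so, and in 3 that were lower (Rpl30, Rpl35 and Rps4l), where 5.91% did. A log2 difference of at least 0.2 in size was seen in 12 of 64 members (18.8%) and in 22.9% of all genes. Centring each array on its median moved the median of all genes from 0.030 to -0.033 and that of the members to -0.069, with 1 member higher and 2 lower (Rpl30 and Rpl35) at an unadjusted p under 0.05 and 2.80% and 8.53% of all genes. Without scramble replicate 2, 6 members (Rpl9, Rpl6l, Rpl37, Rpl7, Rps24 and Rps13) were lower at that p, against 3.70% of all genes, and 0 of the 6 passed after adjustment in limma. The interval of the difference was narrow for most members: in 48 of 64 the 95% confidence interval lay within 0.5 of 0 on the log2 scale, a change of 1.41-fold, and in 62 of 64 within 1.

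Differences were smallest among the brightest members, many of which were read by probe sets placed among genes of another chromosome, as described below. The 30 members with a 6-array mean of 8 or above had a median absolute log2 fold change of 0.035, while the 1052 genes at that level had 0.11, and their differences ran from -0.22 to 0.26. The 18 members between 4 and 8 had a median absolute value of 0.17 (0.13 for 7621 genes) and ran from -0.42 to 0.86. The 16 members below 4 had 0.11 (0.092 for 13507 genes). The spread between replicates was alike, with a median within-group SD of 0.13 for the 64 members and 0.14 for all genes.

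**Figure D1:**
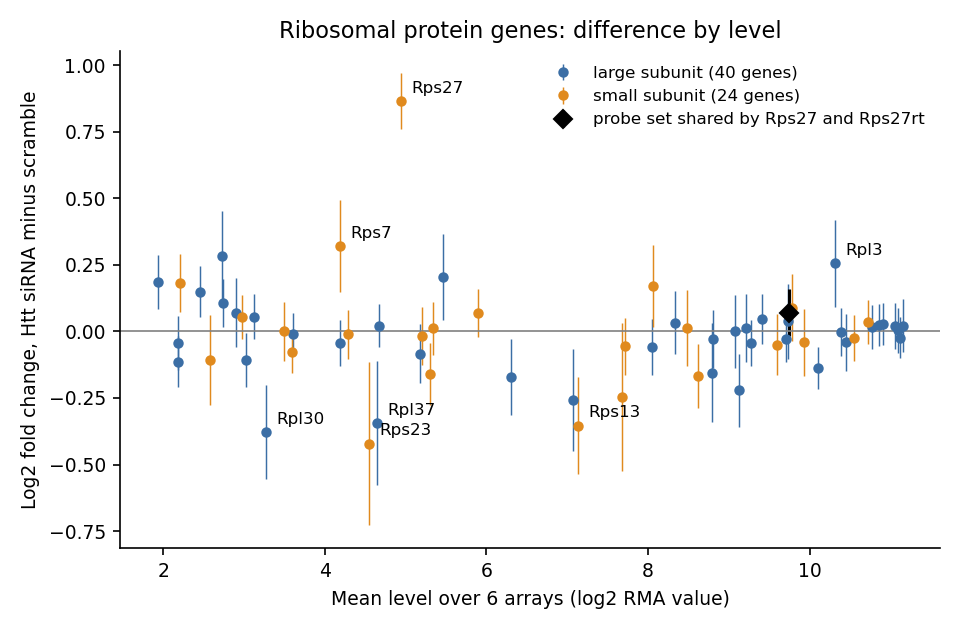
Each point is 1 ribosomal protein gene, with its mean log2 RMA value over the 6 arrays on the x axis and its log2 fold change (Htt siRNA minus scramble, bars are the SE of limma, n = 3 arrays a group) on the y axis. Rps27 stands alone at 0.86, the other 63 lie between -0.42 and 0.32, and the probe set listed under Rps27 and Rps27rt together lies at 0.07.

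Rps27 encodes a zinc-finger protein of the small subunit. Its single-symbol probe set read 5.29, 5.35 and 5.49 in the Htt siRNA arrays and 4.35, 4.55 and 4.63 in the scramble arrays. Every Htt siRNA array was above every scramble array. The log2 fold change was 0.86 ± 0.11 (SE, 95% confidence interval 0.62 to 1.11), a 1.82-fold difference (1.54 to 2.16), with an adjusted p of 0.124 in limma over all genes. The next largest difference in size among the members was 0.42, and Rps27 exceeded the median of the other 63 by 0.87. Over the alternative settings its value ran from 0.78 to 0.93 on this probe set. It passed the threshold without Htt siRNA replicate 2 (adjusted p = 0.0193, with 540 genes called) and in no other fit that left out an array.

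Relative to the median of the other members in the same array, Rps27 deviated from its 6-array mean by 0.36, 0.45 and 0.51 in the arrays of Htt siRNA. In those of scramble the same quantity was -0.64, -0.34 and -0.34. The other members' median deviations lay between -0.058 and 0.050 in the 6 arrays, far less than Rps27 in any array.

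A second probe set carried the symbols Rps27 and Rps27rt together and was therefore not a member. It read 9.78, 9.71 and 9.86 with Htt siRNA and 9.79, 9.64 and 9.72 with scramble, and the groups overlapped. Its log2 fold change was 0.07 ± 0.09 (SE), with an unadjusted p of 0.453 in limma over all probe sets. The 2 probe sets that name Rps27 thus gave differences of 0.86 at a mean level of 4.94 and 0.07 at a mean level of 9.75. The RefSeq table lists 1 coding and 1 non-coding transcript for Rps27. Which of the transcripts or loci each probe set detects is not given in the sources used here and was not tested.

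A neighbour of Rps27 in the RefSeq table is Rab13, a small GTPase of vesicle traffic. Rab13 read 4.88, 4.95 and 4.98 with Htt siRNA and 4.86, 4.999 and 5.11 with scramble, a log2 fold change of -0.06 ± 0.09 (adjusted p = 0.860 in limma). Rps27l, the close paralog of Rps27 and a p53 target, read 5.28, 5.35 and 5.04 against 5.22, 5.45 and 5.48, a log2 fold change of -0.16 ± 0.12 (adjusted p = 0.659). In both genes the groups overlapped.

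**Figure D2:**
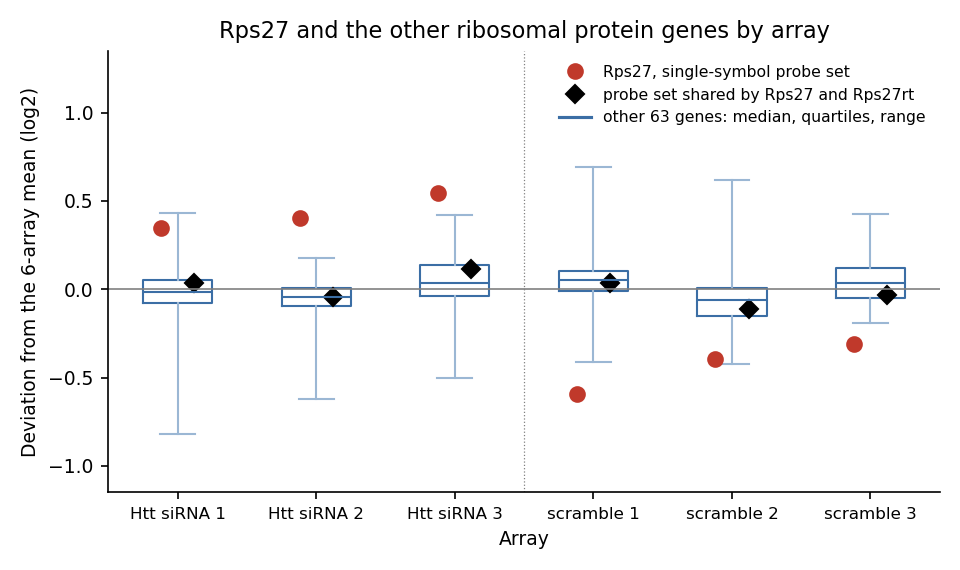
The y axis gives the deviation of a probe set from its own 6-array mean on the log2 scale, and the x axis the 6 arrays; boxes show the median, quartiles and range of the 63 other members. Rps27 (circles) deviates by 0.35 to 0.54 in the Htt siRNA arrays and by -0.59 to -0.31 in the scramble arrays, while the probe set shared with Rps27rt (diamonds) stays between -0.11 and 0.11.

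The annotation names 57 several-symbol probe sets that include a gene of this family, and 14 such genes, Rps2 and Rpl10 among them, appear only there. Across the 57 the median log2 fold change was -0.00034, 0 were higher and 3 lower at an unadjusted p under 0.05, against 4.43% and 4.56% of all probe sets, so 3 of 57 is near the background. After adjustment in limma 0 of the 57 passed, against 0.00242% of all probe sets. The 21 of them at a level of 8 or above ran only from -0.13 to 0.14.

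Rps27 was 1 of 7 members whose own probe set lay below 6 while a several-symbol probe set naming the gene lay at 8 or above. The other 6 were Rpl26, Rpl27a, Rpl30, Rpl37a, Rps3 and Rps16. The several-symbol sets of the 7 ran from -0.00034 to 0.14. The single-symbol sets ran from -0.38 for Rpl30 to 0.86 for Rps27, and the rest of them lay between -0.044 and 0.18. In Rpl27a and Rps16 the single-symbol set also had the wider difference. In Rpl26, Rpl37a and Rps3 the several-symbol set did, with 0.11, 0.14 and 0.12 against -0.04, -0.01 and 0.07. Rpl30, a large subunit protein, illustrates the contrast at the other end. Its own probe set read 3.24, 2.65 and 3.36 with Htt siRNA and 3.50, 3.37 and 3.51 with scramble, a log2 fold change of -0.38 ± 0.18 (adjusted p = 0.491 in limma), whereas the set listed under Rpl30 and Gm12191 had -0.00034 ± 0.085 at a mean level of 10.5. Without Htt siRNA replicate 2, the low array, the difference of Rpl30's own set was -0.16.

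**Figure D3:**
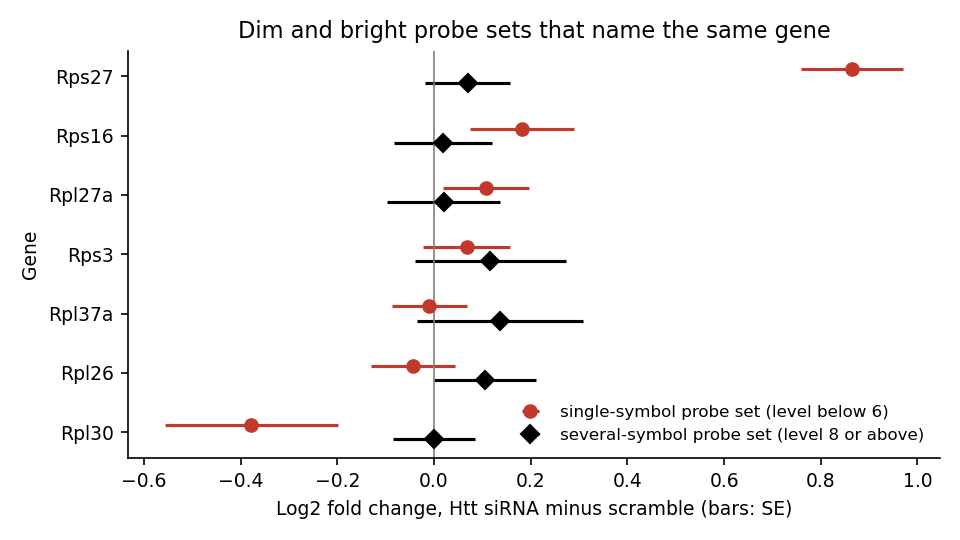
For 7 genes the log2 fold change (x axis, bars are the SE, n = 3 arrays a group) is drawn for the single-symbol probe set (circles, level below 6) and for the brightest several-symbol probe set that names the gene (diamonds, level 8 or above). The diamonds lie between -0.00034 and 0.14, while the circles reach from -0.38 for Rpl30 to 0.86 for Rps27.

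Members with more than 1 single-symbol probe set gave a second view of the same genes. There were 24 such members, and in 15 of them the probe sets differed in sign; in 3 members, 7 probe sets repeated the values of another exactly. The widest gap between sets of 1 gene was that of Rpl3, whose protein reaches into the peptidyl transferase centre. Its brightest probe set read 10.38, 10.23 and 10.74 with Htt siRNA and 10.16, 9.97 and 10.44 with scramble, a log2 fold change of 0.26 ± 0.16 (adjusted p = 0.607 in limma). A second Rpl3 probe set read 7.25, 7.33 and 7.70 against 7.65, 7.89 and 7.80, a log2 fold change of -0.35 ± 0.14 (unadjusted p = 0.0416, adjusted p = 0.542 over all probe sets in limma). Rpl29 was alike in kind, with a log2 fold change of 0.02 on its brightest set and -0.29 on another (unadjusted p = 0.0186, adjusted p = 0.495 in limma over all probe sets).

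The genes named by the 10 nearest probe set identifiers describe a probe set's neighbourhood in the array design. For 43 members, Rps27 included, the most frequent chromosome of those genes was the member's own, and for 21 it was another. The brightest Rpl3 set fell among genes of another chromosome, and its second set among genes of its own. The 21 included Rpl35, Rplp0, Rps6, Rps18, Rps19, Rps28, Rpl13 and Rpsa. Their median log2 fold change was -0.0033, and that of the 43 was -0.0094. The 21 were bright, with a lowest level of 7.07 and a median level of 9.78, against a median level of 4.67 for the 43. The median absolute log2 fold change was 0.041 in the 21 and 0.068 in the 43. Level and array neighbourhood thus went together, and their parts in the small differences of bright members cannot be told apart. The direction of Rpl3 depends on the probe set, and what each set detects was not tested.

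Among small subunit genes besides Rps27, none of the 23 had an unadjusted p under 0.05. Rps7, which also binds the p53 regulator Mdm2, read 4.61, 3.98 and 4.47 with Htt siRNA and 3.97, 3.90 and 4.23 with scramble, so that the groups overlapped through Htt siRNA replicate 2 (log2 fold change 0.32 ± 0.17, adjusted p = 0.545 in limma, and 0.51 without that array, adjusted p = 0.102). Rps13 read 7.15, 7.09 and 6.63 against 7.62, 7.08 and 7.24, a log2 fold change of -0.35 ± 0.18. Dimmer several-symbol probe sets naming Rps13 had the same direction, with -0.46, -0.39 and -0.35 at mean levels of 4.46, 2.47 and 3.09. The groups overlapped in each of these sets, and none passed after adjustment in limma over all probe sets. Rps23, a protein of the decoding site, had the largest negative value, -0.42 ± 0.31, with arrays from 4.08 to 4.87 against 4.14 to 5.17. It was -0.73 without scramble replicate 1 and -0.22 without scramble replicate 2, and neither passed after adjustment in limma. Rps24 (-0.17 ± 0.12), Rps16 (0.18 ± 0.11) and Rps19 (0.17 ± 0.15) overlapped between the groups as well; Rps19 and Rps24 are mutated in Diamond-Blackfan anaemia.

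Rps6, Rpsa, Fau and Rps18, small subunit genes with known roles outside translation or wide use as references, had differences smaller than their SE. Rps6, the substrate of S6 kinase, read 10.74, 10.72 and 10.76 in the Htt siRNA arrays and 10.77, 10.62 and 10.72 in the scramble arrays (log2 fold change 0.04 ± 0.08). Rpsa, also known as a laminin receptor, had -0.04 ± 0.12, and Fau, which encodes a small subunit protein fused to a ubiquitin-like domain and is no member by symbol, 0.04 ± 0.13. Rps18, often a reference gene, read 6.85, 7.77 and 8.03 against 7.81, 7.63 and 7.96. Htt siRNA replicate 1 was the low array, and without it the log2 fold change turned from -0.25 ± 0.28 to 0.10; neither value passed in limma.

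In the large subunit 0 of 40 members had an unadjusted p under 0.05, and their median log2 fold change was -0.0012 against -0.014 for the small subunit. Rpl35, at the exit of the peptide tunnel, had the tightest separation. It read 10.005, 10.019 and 10.095 with Htt siRNA and 10.177, 10.155 and 10.201 with scramble, every Htt siRNA array below every scramble array; the difference was -0.14 ± 0.08 (adjusted p = 0.565 in limma). Dimmer Rpl35 probe sets, at mean levels of 4.43 and 3.34, had -0.12 and 0.27, so the direction depends on the probe set. With the mean of all its probe sets Rpl35 had 0.0066. Rpl37 had -0.34 ± 0.23, Rpl9 -0.26 ± 0.19, Rpl6l -0.22 ± 0.14 and Rpl34 -0.17 ± 0.14, each with overlapping groups. Single arrays moved these values by over 1.5 times: leaving out 1 array gave -0.58 to -0.084 for Rpl37, -0.47 to -0.12 for Rpl9, -0.36 to -0.082 for Rpl6l and -0.29 to -0.059 for Rpl34. On the higher side stood Rpl5 at 0.21 ± 0.16 and Rpl27a at 0.11 ± 0.09. A several-symbol probe set naming Rpl5, at a similar level of 5.45, had -0.23, so the direction of Rpl5 depends on the probe set. Brighter several-symbol sets naming Rpl27a and Rpl34 had 0.02 and -0.03.

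Rpl5 and Rpl11, which form a particle with 5S rRNA that restrains Mdm2, did not pass the test: Rpl11 had a log2 fold change of 0.06 ± 0.09. Rplp0, of the stalk that recruits elongation factors, read 7.85, 8.04 and 8.17 against 8.10, 7.999 and 8.14 (-0.06 ± 0.11). Rpl32, a common reference gene, had 0.05 ± 0.09, with a 95% confidence interval of -0.17 to 0.26. Rpl38, known for its part in translating Hox mRNAs, had 0.001 ± 0.14. Rpl13a, another usual reference, was named only by several-symbol probe sets.

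The listed paralogs showed no common direction. Of 9 listed, 7 had a single-symbol probe set, with 4 positive and 3 negative values. Rpl3l, the striated muscle paralog of Rpl3, read 2.40, 2.505 and 2.68 with Htt siRNA and 2.41, 2.34 and 2.39 with scramble, a log2 fold change of 0.15 ± 0.10 (adjusted p = 0.607 in limma). Its mean of 2.45 lay below the median gene mean. In the same arrays Myog, the transcription factor of terminal muscle differentiation, read 7.73, 6.22 and 7.71 against 4.53, 3.97 and 5.11 (adjusted p = 0.169 in limma). The germline paralogs Rpl10l (0.19 ± 0.10) and Rpl39l (0.28 ± 0.17) were dim too, with means of 1.93 and 2.73.

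Rpl7l1, which is no member by its symbol, read 5.64, 5.76 and 5.72 against 6.02, 5.88 and 5.93, a log2 fold change of -0.24 ± 0.09 (unadjusted p = 0.0247, adjusted p = 0.407 in limma). Every Htt siRNA array was below every scramble array. Rpl22l1, the paralog of Rpl22, had 0.10 ± 0.12, and Rps4l -0.08 ± 0.08. Rps3a1, a standard small subunit gene that the symbol rule leaves out, had -0.01 ± 0.12 at a level of 10.0.

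The arrays of a group differed more from each other than the group means did, which were -0.0038 ± 0.042 and 0.0070 ± 0.058 (SD, n = 3) for the members' median deviation in Htt siRNA and scramble. The median deviation of the 64 members from their own 6-array means was -0.013, -0.040 and 0.042 in the Htt siRNA arrays, in replicate order, and 0.049, -0.059 and 0.031 in the scramble arrays. Members above their own mean numbered 27, 19 and 40 in the Htt siRNA arrays and 43, 19 and 39 in the scramble arrays, so 1 array of each group, replicate 2, was low. A list of 21 unfolded protein and integrated stress response genes stood at 0.69, -0.93 and 0.69 with Htt siRNA and at 0.62, -0.87 and -0.47 with scramble. Both replicates 2 were thus low in ribosomal protein and in stress genes, while scramble replicate 3 was low in stress genes but not in ribosomal protein genes; the part of this in the results was not tested.

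**Figure D4:**
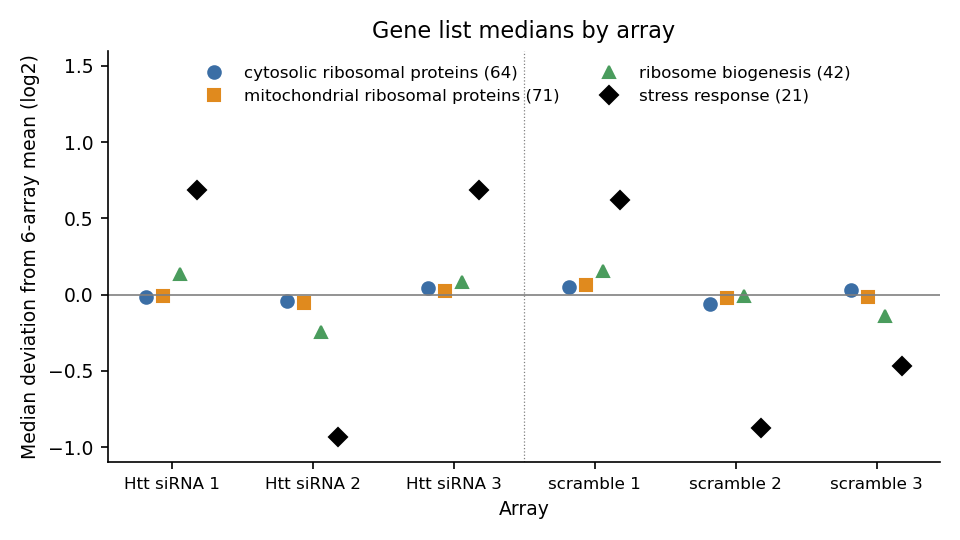
The y axis gives the median deviation of a list's genes from their own 6-array means on the log2 scale, for each of the 6 arrays on the x axis. The 64 ribosomal protein genes (circles) stay between -0.059 and 0.049, squares and triangles show mitochondrial ribosomal protein and biogenesis genes, and the 21 stress response genes (diamonds) range from -0.93 to 0.69 across both groups.

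Most other lists of the translation machinery also had medians near 0. The counts of each list below stand against 5.72% of all genes higher and 5.14% lower at an unadjusted p under 0.05 in limma. A count of 1 lower gene among 17 or 18 is near that background. Of 71 mitochondrial ribosomal protein genes, whose products build the separate ribosome of mitochondria, 1 was higher and 1 lower at an unadjusted p under 0.05 and 0 passed after adjustment in limma; the median was -0.023. Mrps14 had 0.27 ± 0.08 at the dim level of 2.64, and Mrps25 had -0.30 ± 0.08 (adjusted p = 0.345), reading 5.08, 4.998 and 5.02 against 5.28, 5.40 and 5.33. Of 18 translation factors and other genes known for TOP mRNAs, 0 were higher and 1 lower, with a median of 0.0052. That 1 was Pabpc1, the poly(A) binding protein (-0.20 ± 0.08, adjusted p = 0.445), and the highest by p was Eif4a2, a helicase of initiation (0.12 ± 0.09).

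Of 17 other initiation factor genes 0 reached an unadjusted p under 0.05 in either direction (median -0.013), with Eif4a1 at 0.15 ± 0.09 and Eif3b at -0.14 ± 0.08, and 0 passed in limma. For 42 ribosome biogenesis genes, which act in rRNA synthesis and subunit assembly, the counts were also 0 and 0 (median -0.0023). Ubtf, a factor of RNA polymerase I, had 0.17 ± 0.10, and Riok2, a kinase of small subunit maturation, -0.32 ± 0.19. Of 17 mTORC1 and S6 kinase regulators, 0 were higher and 1 was lower (median 0.034). Deptor, an inhibitor bound to mTOR, read 7.09, 7.38 and 7.01 against 7.53, 7.40 and 7.64, a log2 fold change of -0.36 ± 0.12 (adjusted p = 0.395 in limma), and Rragc, a GTPase that activates mTORC1, had 0.23 ± 0.14.

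The Rps6k kinases, left out of the members, had 0 higher and 1 lower of 6, which was Rps6ka5 (-0.28 ± 0.11, adjusted p = 0.428 in limma), with Rps6ka6 at 0.18 ± 0.09 and a mean of 2.12. Of 6 measured long RNAs that host small nucleolar RNAs, 0 reached an unadjusted p under 0.05, with Snhg6 at 0.26 ± 0.23 and Snhg3 at -0.08 ± 0.10. Their median of 0.17 was further from 0, with 4 positive and 2 negative values from -0.08 to 0.45 and a median SE of 0.25.

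Many ribosomal protein genes carry small nucleolar RNA genes, which guide rRNA modification, in their introns. The RefSeq table places 20 of them inside 15 members, and 11, inside 10 members, had a single-symbol probe set. Their median log2 fold change was -0.14, with 8 of 11 negative, and 0 passed in limma. At an unadjusted p under 0.05, 0 were higher and 1 lower, against 5.72% and 5.14% of all genes. Most of the 11 had a mean between 4 and 8. Of the 7621 genes at that level, 4250 were negative and 796 were lower at that p. Snord15a, inside Rps3, read 3.97, 4.14 and 4.38 with Htt siRNA and 4.90, 4.42 and 4.61 with scramble, a log2 fold change of -0.48 ± 0.15 (adjusted p = 0.387), and the groups did not overlap. Its host Rps3 had 0.07 ± 0.09. Snord72, inside Rpl37, had -0.34 ± 0.16 where Rpl37 had -0.34 ± 0.23, and Snora62, inside Rpsa, had 0.32 ± 0.28. A probe set inside a host gene may also detect the host transcript, which was not tested.

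**Figure D5:**
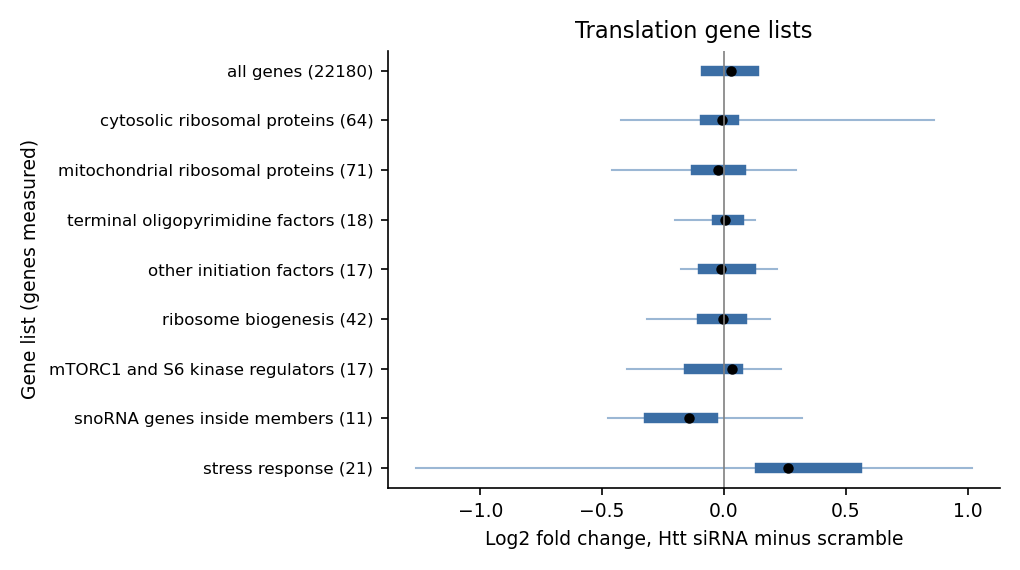
Each row is a gene list, with the number of genes measured; the dot is the median log2 fold change (Htt siRNA minus scramble), the thick bar spans the quartiles and the thin line the range (not drawn for all genes). The medians of the cytosolic and mitochondrial ribosomal protein, TOP, initiation and biogenesis lists lie between -0.023 and 0.0052, and the snoRNA genes inside members lie at -0.14.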

How the data were processed

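The values used are on the log2 scale, as the authors deposited them, for 41345 probe sets on 6 arrays; the submitters' processing notes name RMA and affy, without versions; no genome build is given in the sources used here. Values ran from 0.84 to 12.1, and arrays correlated with r from 0.981 to 0.991 over probe sets. The platform annotation gave 23521 probe sets 1 symbol, 1814 several and 16010 none. The brightest single-symbol probe set stood for each of 22180 genes, with no filter on dim genes.

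Differences were fitted with limma 3.58.1 (R 4.3.3; lmFit, eBayes, group as the only term, two-sided, Benjamini-Hochberg over all genes, threshold 0.05), after a check on simulated data. Tables and plots used Python 3.11.15, pandas 2.3.3 and matplotlib 3.10.9. Members, lists and the naming rule were chosen with earlier results of these data known. The rule names Htt, Rps27, the 10 members with the smallest p per direction, paralogs, a fixed set of members with known roles, members whose probe sets differ in sign (given as a count, with Rpl3 in full), and the gene with the smallest p per direction in each other list. Rab13, Rps3a1, Myog, Snord72 and the several-symbol probe sets were chosen after their values were seen. RefSeq promoter windows matched 49 of 64 members.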

Additional observations from a re-analysis of the deposited data

How the results depend on the processing

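Results were recomputed under 17 other settings, 3 of them chosen after seeing the data: all probe sets tested, the brightest probe set with several symbols allowed, and members whose identifiers lie among genes of their own chromosome. Among named members other than Rps27, 0 passed the threshold in any setting where they were fitted, and Htt passed it in 6 settings.

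Leaving out 1 array at a time gave 0 to 1 called members, a median member difference from -0.060 to 0.017, an Rps27 difference from 0.78 to 0.93 (adjusted p 0.0193 to 0.469), an excess of Rps27 over the other members from 0.78 to 0.94, 1 to 3 higher and 0 to 6 lower members at an unadjusted p under 0.05, and 3 to 8 higher and 4 to 10 lower members with groups that did not overlap. Over all genes the shares in the same fits were 3.23% to 7.80% higher and 3.10% to 7.75% lower at that p, and 13.7% to 19.1% higher and 8.91% to 13.9% lower without overlap.

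With arrays centred on their medians, the member median was -0.069, and 2 members were lower at an unadjusted p under 0.05. Groups did not overlap in 1 higher and 7 lower members, against 4.64% and 11.3% of all genes, and only the lower count was near its share. Over all genes the split at that p turned from 1269 higher and 1140 lower to 620 and 1893. Repeated quantile normalization, genes above the median mean level and the core subunit list left 1 higher member without overlap. With several symbols allowed, Rps27 had 0.07, an excess of 0.069, 0 members were higher and 1 (the set listed under Rps15a and Rps15a-ps5) lower at an unadjusted p under 0.05, and 1 was higher without overlap. The cause was not tested.

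The labels number replicates 1 to 3 in both groups. Deviations of same-numbered arrays correlated with r = 0.35, 0.36 and 0.0064 over 22180 genes, and replicate 3 did not correlate best with its own number, so the numbers were not taken as pairs. With the replicate block limma called 98 genes and 1 member, Rps27 (0.86, adjusted p = 0.0255), and 3 higher and 4 lower members had an unadjusted p under 0.05, against 7.20% and 6.67% of all genes.

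The 16 members with a mean below 4 had the weakest signal, and how far they stood above background was not tested.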
